A study of Nicotiana tabacum with 6 samples.

Results

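The genes described here are 76 gene models of tobacco (Nicotiana tabacum) whose domain description names an enzyme of branched-chain amino acid metabolism or a domain shared with one. They were taken from a table of 69500 gene models by a text search for isopropylmalate, acetolactate, acetohydroxy, dihydroxy-acid, branched-chain, 2-oxoacid dehydrogenase and threonine dehydratase. The search found 103 rows, and 76 of them had at least 1 FPKM (fragments mapped to a transcript, corrected for its length and for the size of the library) in at least 3 of the 6 libraries. Leaf RNA was sequenced from MuGDH64, a stable line bred from GDH64 by cobalt gamma irradiation and described as aphid-resistant, and from GDH64, the line that was irradiated, with 3 libraries of each. MuGDH64 is 1 mutant line, and leaf punches of several plants of a plot were pooled. The labels give several sampling dates and more than 1 season, and tie no library to any of them. The series title names a mutation of NtCYC in this line, together with glandular trichome density and aroma.

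Plants make valine, leucine and isoleucine in plastids with a set of shared enzymes. Threonine dehydratase makes the oxoacid that starts isoleucine. Acetolactate synthase, ketol-acid reductoisomerase, dihydroxy-acid dehydratase and branched-chain aminotransferase then serve all of these amino acids, while isopropylmalate synthase, dehydratase and dehydrogenase lengthen the valine precursor into the leucine precursor. In mitochondria, aminotransferases and the branched-chain ketoacid dehydrogenase complex turn the amino acids back into branched acyl-CoA groups. Glandular trichomes of tobacco and its relatives attach such acyl groups to sugars, and the resulting sugar esters are known as sticky exudates that act against insects and as precursors of aroma acids.

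The descriptions did not bear out the label for every gene. Only 36 of the 76 members carried a domain name of a branched-chain step, and they fell into 11 steps or subunits. The remaining 40 were found through a domain that branched-chain enzymes share with other proteins. Among them were aconitases and isocitrate dehydrogenases of the citric acid cycle, the E2 acyltransferases of the pyruvate and oxoglutarate dehydrogenase complexes, threonine synthase-like proteins and kinases of the pyruvate dehydrogenase type. Domain names do not tell in which organelle or cell type a copy works. The table pairs the gene models with no gene symbol, and none of its identifiers occurs in the RefSeq gene table of tobacco, so no sequence or map position is given for them.

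Members ranged in mean level from 1.59 to 125 FPKM, with a median of 11.3 FPKM against 6.53 FPKM for the 32340 tested genes. Of the 76 members 73 had at least 1 FPKM in every library, and none reached that level in exactly 3. Just inside the limit were an E2-type gene described below, the dehydrogenase Nitab4.5_0000702g0050, with 0.98 to 2.34 FPKM over the libraries, and the aminotransferase Nitab4.5_0004211g0010, with 0.73 to 2.48 FPKM. Just outside it were the aminotransferase Nitab4.5_0003724g0020, with 0.16 to 0.79 FPKM, and the dehydrogenase Nitab4.5_0002463g0020, with 0.39 to 0.75 FPKM. Of the 27 rows left out, 15 were listed at 0 in all libraries.

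The libraries differed in ways that touch every value below. Summed FPKM over the table ran from 634425 to 719776 in MuGDH64 and from 728572 to 756316 in GDH64, and the median log2 change of all tested genes was -0.18. Changes called relative are given against this median. GDH64 library 2 held the highest GDH64 value for 58 of the 76 members (76.3%, against 53.05% of all tested genes), and MuGDH64 library 3 held the lowest MuGDH64 value for 55 (72.4%, against 61.7%). Their part in the results was not tested beyond leaving each library out. Summed levels of 94 gene models for chlorophyll-binding proteins, the Rubisco small subunit and a photosystem subunit, which mark leaf mesophyll, overlapped between MuGDH64 (15928 to 16806 FPKM) and GDH64 (15611 to 17505 FPKM), with 11 of them listed at 0. The summed pollen-type list was 836 to 905 FPKM in MuGDH64 and 934 to 984 FPKM in GDH64, where 78 of its 165 rows were at 0. The seed list summed to 38.5 to 43.5 FPKM in MuGDH64 against 41.8 to 53.7 FPKM in GDH64 (24 of 47 rows at 0), and the root cap list to 17.8 to 21.0 FPKM in MuGDH64 against 16.9 to 17.6 FPKM in GDH64 (11 of 16 at 0). In whole leaf, fewer cells of a type and less RNA per cell cannot be told apart. Tobacco is an allotetraploid, and the counting may have shared or split reads of near-identical copies.

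The question was which of these genes had other transcript levels in the mutant than in its parent. By limma on log2(FPKM + 1), 7 of the 76 members passed an adjusted p of 0.05, 2 of them higher and 5 lower in MuGDH64. That is 9.21% of the members, where 11.9% of all tested genes passed (2.2% higher and 9.74% lower), so the number of calls does not set these genes apart. The lines did not overlap for 23 members, 7 with MuGDH64 above and 16 with MuGDH64 below, against 37.5% of all tested genes (5.68% above and 31.8% below). After quantile normalization, which gives the libraries a common distribution, 8 members passed as higher and 1 as lower, where 9.6% of all tested genes passed (4.43% higher and 5.17% lower). After median-centring the split was 12 higher and 1 lower, where 10.3% of all tested genes passed (6% higher and 4.28% lower). With 1 library left out the count of members past the threshold ran from 0 to 3. Without GDH64 library 1, 2 or 3 it was 2, 2 and 3 (2.63%, 2.63% and 3.95% of the members). Of all tested genes 5.66%, 6.13% and 9.91% passed in these fits. Without MuGDH64 library 1, 2 or 3 it was 2, 1 and 0 (2.63%, 1.32% and 0%). There 8.08%, 6.36% and 5.8% of all tested genes passed. Without MuGDH64 library 3, 9 members still had an unadjusted p under 0.05, and no such share was taken over all genes.

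Threonine dehydratase, the committed step towards isoleucine, fell in MuGDH64 at both of its expressed copies. The minor copy, Nitab4.5_0010518g0020, had 6.13, 6.12 and 5.39 FPKM in the MuGDH64 libraries, against 9.56, 11.83 and 8.64 FPKM in the GDH64 libraries. The lines did not overlap, and the mean was 0.587 of that in GDH64. Its log2 change was -0.67 (95% interval -0.98 to -0.36; limma adjusted p = 0.0169), or -0.49 relative to all genes. Of 14 other settings it missed only in the one without MuGDH64 library 3 (0.0589), and its lowest adjusted p was 0.0101.

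The major threonine dehydratase copy, Nitab4.5_0000132g0410, had 51.81, 52.08 and 47.59 FPKM in MuGDH64 and 73.61, 86.98 and 61.46 FPKM in GDH64. All MuGDH64 libraries lay below all GDH64 libraries, and the GDH64 libraries were spread more widely. The log2 change was -0.53 (interval -0.82 to -0.24; limma adjusted p = 0.0314). This call held in 4 of 14 other settings, where adjusted p ranged from 0.0153 to 0.0926, and missed after quantile normalization (0.058), after median-centring (0.0723) and without any library other than GDH64 library 3. The 2 copies together gave 57.94, 58.2 and 52.98 FPKM in MuGDH64 against 83.17, 98.81 and 70.1 FPKM in GDH64, a ratio of means of 0.671 that stayed between 0.725 and 0.777 under the 3 other scalings. The major copy held 89.6 ± 0.218% of this sum in MuGDH64 and 88.1 ± 0.417% in GDH64 (mean ± SD, n = 3 libraries per line, as below). The other 4 threonine dehydratase rows, none above 0.24 FPKM in any library, were among those left out.

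**Figure D1:**
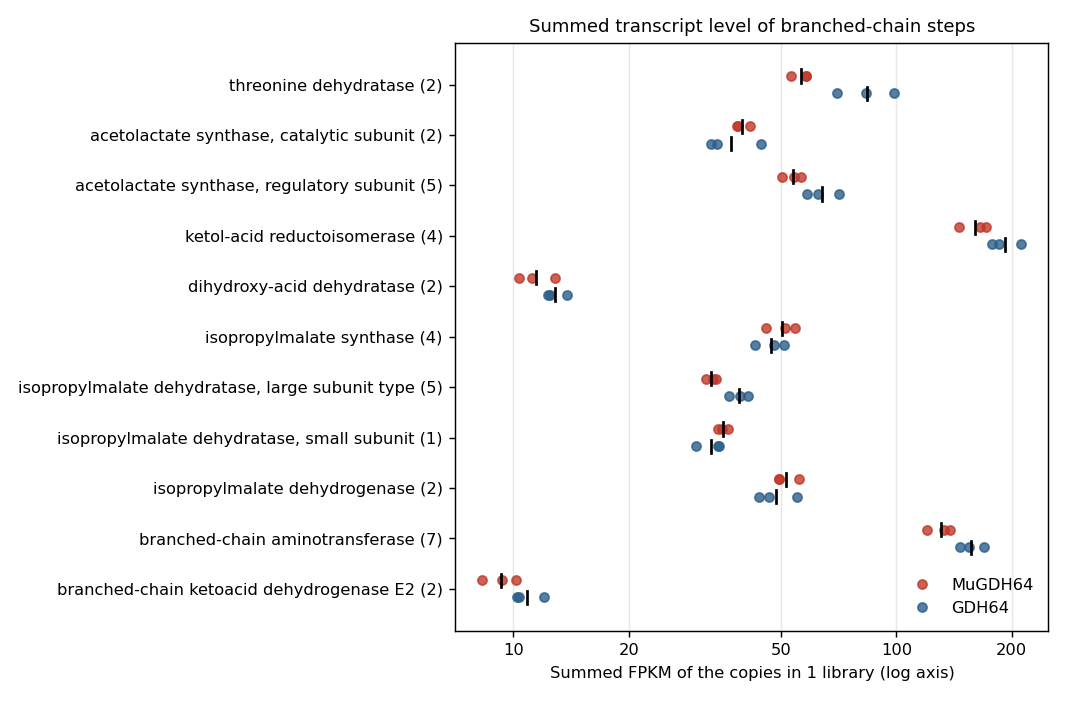
Summed FPKM of the copies of each branched-chain step in every library (log axis), with MuGDH64 in red above GDH64 in blue; vertical bars are means of 3 libraries and numbers in brackets count the copies. Threonine dehydratase shows the widest gap, 56.4 ± 2.94 FPKM in MuGDH64 against 84.03 ± 14.4 FPKM in GDH64. The acetolactate synthase regulatory subunit, ketol-acid reductoisomerase, the large dehydratase subunit, the aminotransferases and the branched-chain E2 also lie lower in MuGDH64 without overlap. Their ratios of means, as deposited, are 0.831 to 0.853. The deposited sum of all tested genes is also lower in MuGDH64 without overlap, at a ratio of 0.921. The remaining steps overlap.

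Domains shared with threonine dehydratase did not show calls. None of the 4 threonine synthase-like members and neither of the 2 with only the pyridoxal-phosphate site of serine/threonine dehydratases passed, as deposited or after quantile normalization, with log2 changes between -0.38 and -0.11. The one with the highest mean level, Nitab4.5_0011896g0010, had 9.25, 9.61 and 6.78 FPKM in MuGDH64 against 10.04, 12.33 and 8.45 FPKM in GDH64, and its lines overlapped (interval -0.62 to 0.14).

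Acetolactate synthase, the first shared enzyme and the target of several herbicide classes, is built from a catalytic and a regulatory subunit. The catalytic subunit had 2 expressed copies, neither past the threshold. Nitab4.5_0010961g0010 had 21.08, 22.54 and 20.36 FPKM in MuGDH64 and 20.71, 26.33 and 20.01 FPKM in GDH64, with a log2 change of -0.06 (interval -0.33 to 0.22). Nitab4.5_0011199g0020 had 17.44, 18.92 and 17.88 FPKM in MuGDH64 and 13.3, 18.05 and 12.77 FPKM in GDH64. Here GDH64 library 2 lay within the MuGDH64 values, and the log2 change was 0.30 (interval -0.02 to 0.61; limma adjusted p = 0.179, 0.06 after quantile normalization and 0.0352, past the threshold, after median-centring).

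Within each library the balance of these copies differed between the lines by more than the libraries of a line did. Nitab4.5_0011199g0020 made up 45.9 ± 0.773% of the catalytic transcripts in MuGDH64 and 39.6 ± 0.950% in GDH64, and the lines did not overlap. Such a share does not depend on how libraries are scaled to each other, and it does not say which copy changed. Shares are given as a description, and those printed in the text are of copies whose lines lay apart. For isopropylmalate synthase, dihydroxy-acid dehydratase, the large dehydratase subunit and the branched-chain E2, the share of every copy overlapped. No such comparison was made for other sets of genes. The 5 regulatory subunit copies, which relay feedback from the end products, had log2 changes from -0.36 to -0.11, and none passed as deposited or after quantile normalization. The most abundant, Nitab4.5_0000064g0110, had 18, 19.64 and 16.41 FPKM in MuGDH64 against 22.43, 23.19 and 18.92 FPKM in GDH64, with 1 MuGDH64 value above the lowest of GDH64. The regulatory copies summed to 53.6 ± 3.13 FPKM in MuGDH64 and 63.9 ± 6.38 FPKM in GDH64, without overlap. The ratio of means was 0.840 as deposited and 0.913 to 0.978 under the other scalings. The deposited sum of all tested genes was also lower without overlap, at a ratio of 0.921.

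Ketol-acid reductoisomerase was the most abundant branched-chain step, with 161 ± 13.4 FPKM in MuGDH64 and 192 ± 18.2 FPKM in GDH64 over 4 copies. The leading copy, Nitab4.5_0004426g0050, had 79.68, 75.46 and 66.61 FPKM in MuGDH64 and 93.36, 106.09 and 85.68 FPKM in GDH64. The lines did not overlap, yet the copy missed the threshold (log2 change -0.36, interval -0.61 to -0.11; limma adjusted p = 0.0692). It held 46.02 ± 0.439% of the reductoisomerase transcripts in MuGDH64 and 49.6 ± 1.15% in GDH64. The copy Nitab4.5_0000537g0070 held 16.6 ± 0.594% in MuGDH64 and 14.5 ± 0.842% in GDH64, again without overlap, at levels of 27.49, 28.38 and 23.87 FPKM in MuGDH64 against 25.29, 30.59 and 27.23 FPKM in GDH64 that did overlap. Dihydroxy-acid dehydratase, which forms the oxoacids, had 2 expressed copies without a call. Its main copy, Nitab4.5_0001769g0010, had 11.03, 9.53 and 8.73 FPKM in MuGDH64 and 10.61, 11.85 and 10.05 FPKM in GDH64 (log2 change -0.14, interval -0.42 to 0.14). The summed levels of this step, at 11.5 ± 1.27 FPKM in MuGDH64 and 12.9 ± 0.820 FPKM in GDH64, overlapped and were the lowest of the synthesis route, with a ratio of means of 0.893 as deposited that turned to 1.03 after quantile normalization and 1.05 after median-centring.

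**Figure D2:**
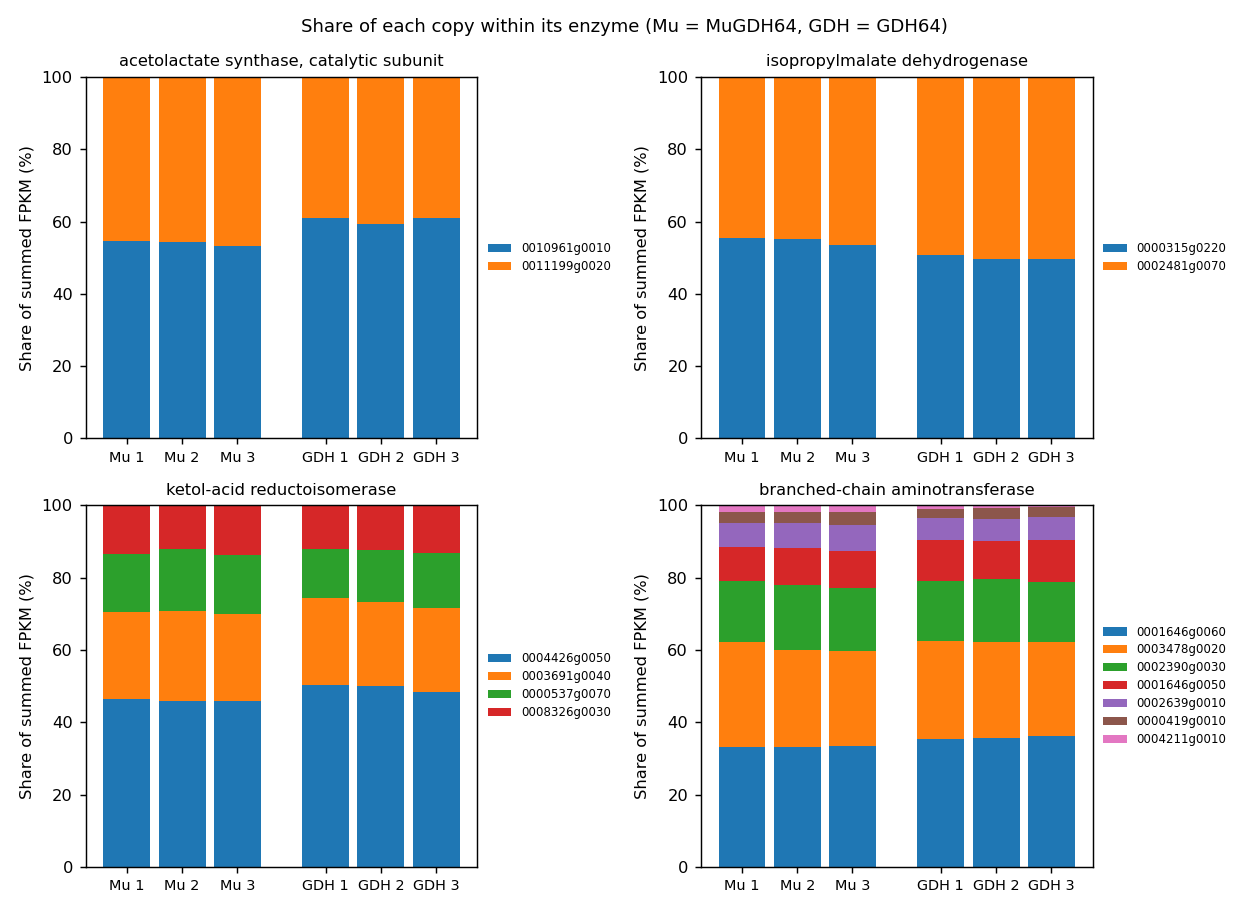
Share of each gene model in the summed FPKM of its enzyme, in percent, for the 3 MuGDH64 libraries (left bars) and the 3 GDH64 libraries (right bars), with the prefix Nitab4.5_ left out of the names. In acetolactate synthase the copy Nitab4.5_0011199g0020 takes 45.9% in MuGDH64 and 39.6% in GDH64 on average, and in isopropylmalate dehydrogenase Nitab4.5_0000315g0220 takes 54.7% and 49.9%. Steps not drawn include some where the share of every copy overlaps, such as isopropylmalate synthase.

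The leucine branch held no call on the deposited values. All 4 isopropylmalate synthase copies, the entry into leucine synthesis and, in tomato, the family of a gene that shapes the acyl chains of trichome sugar esters, had log2 changes between 0.03 and 0.13, where the median gene had -0.18. The leading copy by mean level, Nitab4.5_0001586g0080, had 17.29, 15.52 and 12.63 FPKM in MuGDH64 and 13.1, 15.09 and 12.76 FPKM in GDH64, and the lines overlapped (interval -0.17 to 0.44; limma adjusted p = 0.515). The 4 copies summed to 54.43, 51.05 and 45.74 FPKM in MuGDH64 against 47.88, 50.75 and 42.72 FPKM in GDH64, a ratio of means of 1.07 as deposited and of 1.16 to 1.24 under the other scalings. No copy of it passed after quantile normalization, and 1 did after median-centring.

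Isopropylmalate dehydratase joins a large and a small subunit. The single expressed small subunit gene, Nitab4.5_0002881g0050, had 36.39, 34.3 and 34.98 FPKM in MuGDH64 and 34.4, 34.26 and 30.02 FPKM in GDH64, overlapping between the lines (log2 change 0.10, interval -0.12 to 0.31). The 5 rows of the large subunit type had log2 changes from -0.29 to 0.03. Their leading row, Nitab4.5_0000592g0470, had 13.87, 13.13 and 12.28 FPKM in MuGDH64 against 16.61, 17.71 and 14.37 FPKM in GDH64, without overlap and short of the threshold (limma adjusted p = 0.125). Isopropylmalate dehydrogenase, the last step of the branch, had 2 copies at like levels. Nitab4.5_0000315g0220 had 30.97, 27.26 and 26.31 FPKM in MuGDH64 and 23.56, 27.19 and 21.67 FPKM in GDH64. It did not pass as deposited (log2 change 0.22, interval -0.05 to 0.48; limma adjusted p = 0.233) and passed as higher after quantile normalization (0.0442) and median-centring (0.0197). Its share of the dehydrogenase transcripts was 54.7 ± 1.17% in MuGDH64 and 49.9 ± 0.667% in GDH64, without overlap.

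Branched-chain aminotransferases, which close the synthesis of all of these amino acids in plastids and open their breakdown in mitochondria, had 7 expressed copies that moved in both directions. The pair Nitab4.5_0001646g0060 and Nitab4.5_0001646g0050, neighbours by identifier on a scaffold, both fell. Nitab4.5_0001646g0060, the most abundant copy, had 45.79, 43.99 and 40.07 FPKM in MuGDH64 and 54.85, 60.26 and 52.93 FPKM in GDH64 (log2 change -0.36, interval -0.58 to -0.14; limma adjusted p = 0.0434). Nitab4.5_0001646g0050 had 12.89, 13.7 and 12.29 FPKM in MuGDH64 and 17.81, 17.95 and 16.96 FPKM in GDH64 (log2 change -0.41, interval -0.63 to -0.19; limma adjusted p = 0.0294). Neither overlapped between the lines. Relative to all genes these changes were -0.19 and -0.24, and both calls were lost after quantile normalization (adjusted p 0.053 and 0.077) and after median-centring (0.13 and 0.123), and in every fit with 1 library left out.

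A weakly expressed aminotransferase, Nitab4.5_0004211g0010, rose. It had 2.39, 2.48 and 2.23 FPKM in MuGDH64 and 1.35, 1.2 and 0.73 FPKM in GDH64, and the mean was 2.16 times that in GDH64. Its log2 change was 0.70 (interval 0.33 to 1.06; limma adjusted p = 0.0274), or 0.87 relative to all genes, and it passed after quantile normalization (0.0124) and median-centring (0.0107). Without 1 library it passed only without GDH64 library 1 (adjusted p 0.0439), with 0.0533 to 0.0761 in the other such fits. It made up 1.82 ± 0.0749% of the aminotransferase transcripts in MuGDH64 and 0.693 ± 0.187% in GDH64. The other 4 copies had log2 changes from -0.22 to -0.05 without a call. All 7 summed to 138.06, 133.14 and 119.95 FPKM in MuGDH64 against 154.92, 169.64 and 146.3 FPKM in GDH64, a ratio of 0.831 as deposited and of 0.902 to 0.961 under the other scalings.

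**Figure D3:**
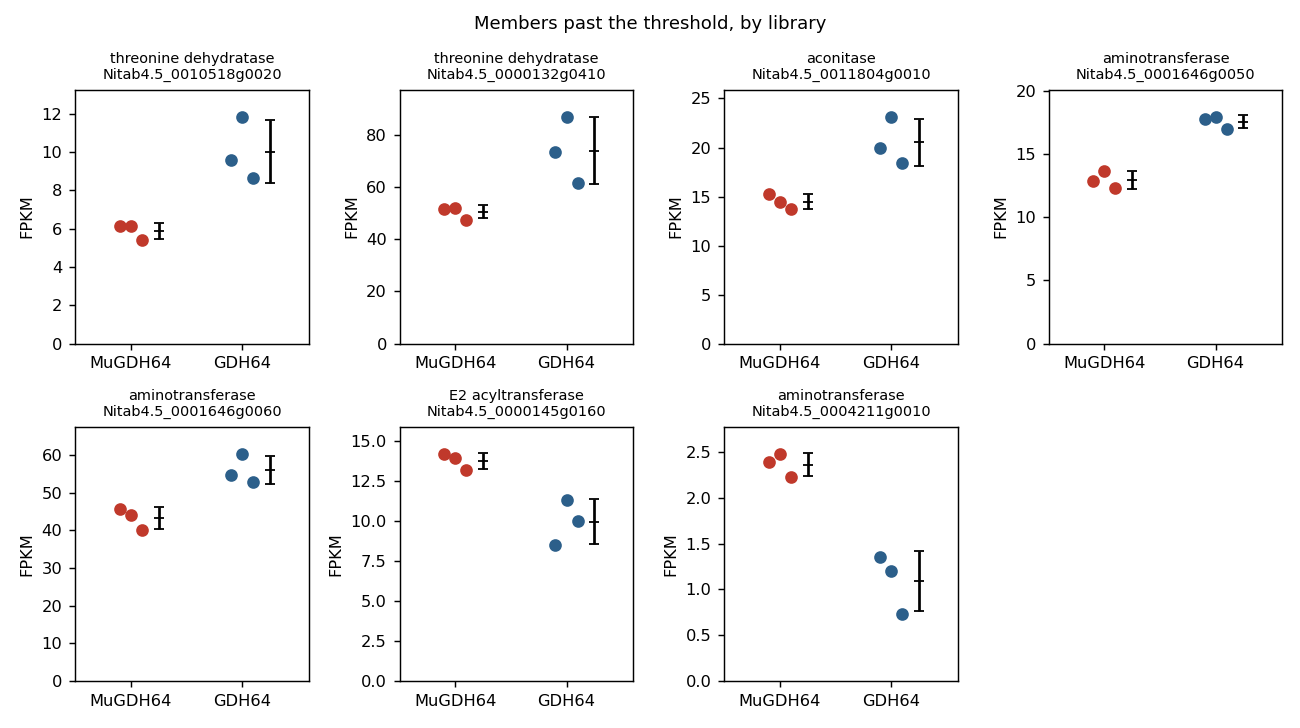
FPKM of the 7 members past the threshold in each library (points), with mean ± SD in black, MuGDH64 left and GDH64 right, on axes that start at 0. The lines do not overlap in any panel; 5 genes are lower in MuGDH64, and the aminotransferase Nitab4.5_0004211g0010 and the E2 acyltransferase Nitab4.5_0000145g0160 are higher.

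Ratios between steps were taken within each library, where the scaling of libraries cancels. These ratios were computed after the values had been seen and are given as a description. Of the 55 pairs among the 11 branched-chain steps, 34 had ratios that did not overlap between the lines. No such count was made for other sets of genes, so it cannot be called particular to this pathway. Pairs that share a step are not independent, and 10 of the 34 hold threonine dehydratase. Threonine dehydratase was apart from each of the other 10 steps, and lower against every one of them in MuGDH64. Its ratio to the catalytic subunit of acetolactate synthase, the enzyme that uses its product, was 1.5, 1.40 and 1.39 in MuGDH64 and 2.45, 2.23 and 2.14 in GDH64. The regulatory subunit stood at 1.41, 1.36 and 1.31 times the catalytic subunit in MuGDH64 and at 1.84, 1.6 and 1.78 times in GDH64.

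Isopropylmalate synthase, isopropylmalate dehydrogenase and the small dehydratase subunit were each apart from 7 of the other 10 steps. The ratio of isopropylmalate synthase to the aminotransferases was 0.386 ± 0.00693 in MuGDH64 and 0.3 ± 0.00857 in GDH64. Its ratio to ketol-acid reductoisomerase was 0.314 ± 0.00413 in MuGDH64 and 0.246 ± 0.0108 in GDH64. The spread within a line was small beside the gap for both. A ratio shows that the steps changed unequally, not which of them changed.

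**Figure D4:**
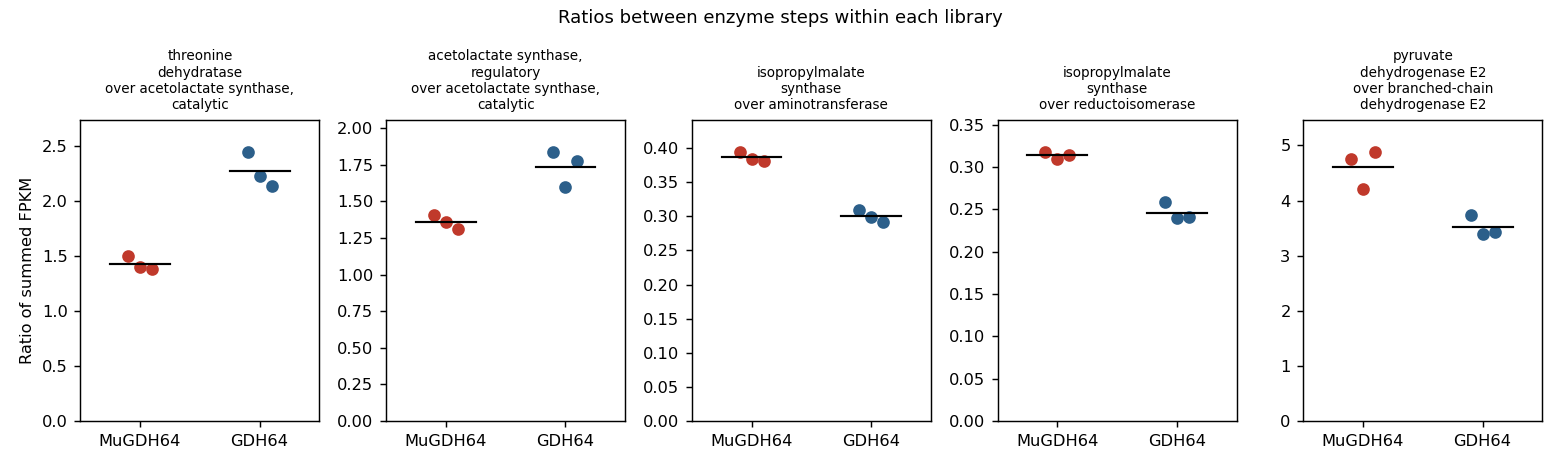
Ratio of the summed FPKM of enzyme steps within each library, MuGDH64 left and GDH64 right, with bars at the means and axes from 0. In all 5 pairs the 3 MuGDH64 libraries lie apart from the 3 GDH64 libraries, below them for both ratios to the acetolactate synthase catalytic subunit and above them for the other 3. These ratios were computed after the values had been seen. Among branched-chain steps 34 of all 55 pairs lay apart, and the pair with the pyruvate E2 is not one of those 55.

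The E2 acyltransferases form the core of the complexes that turn oxoacids into acyl-CoA. The branched-chain form, named lipoamide acyltransferase, had 2 copies at low levels without a call. Nitab4.5_0005312g0020 had 5.62, 5.78 and 5.24 FPKM in MuGDH64 and 5.59, 7.21 and 6.21 FPKM in GDH64, overlapping (log2 change -0.16, interval -0.44 to 0.12). Together the branched-chain E2 copies gave 9.27 ± 0.941 FPKM in MuGDH64 and 10.9 ± 0.983 FPKM in GDH64, a ratio of 0.853 that was 1.01 after quantile normalization and after median-centring.

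The related pyruvate and oxoglutarate dehydrogenase E2 genes, 4 and 3 in number, all had log2 changes above 0, from 0.03 to 0.33, and none passed on the deposited values. After quantile normalization 3 of the 4 and 2 of the 3 passed as higher, where 4.43% of all tested genes did. The leading pyruvate form, Nitab4.5_0005003g0050, had 12.7, 11.92 and 11.61 FPKM in MuGDH64 and 10.95, 11.48 and 10.13 FPKM in GDH64, without overlap (log2 change 0.14, interval -0.09 to 0.38; limma adjusted p = 0.372, and 0.0438 after quantile normalization). The oxoglutarate form Nitab4.5_0013139g0020 had 6.14, 7.03 and 6.32 FPKM in MuGDH64 and 4.59, 5.71 and 4.67 FPKM in GDH64, also without overlap (log2 change 0.33, interval 0.04 to 0.61; limma adjusted p = 0.118, and 0.0213 after quantile normalization). The most abundant oxoglutarate form, Nitab4.5_0003450g0010, had 16.95, 16.71 and 14.18 FPKM in MuGDH64 and 15.16, 15.99 and 15.08 FPKM in GDH64, overlapping. The pyruvate E2 sum stood at 4.75, 4.21 and 4.88 times the branched-chain E2 sum in MuGDH64 and at 3.73, 3.40 and 3.42 times in GDH64.

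A further 9 E2-type genes name no complex, and 1 of them rose. Nitab4.5_0000145g0160 had 14.18, 13.93 and 13.22 FPKM in MuGDH64 and 8.51, 11.34 and 9.99 FPKM in GDH64, without overlap. Its log2 change was 0.44 (interval 0.16 to 0.72; limma adjusted p = 0.0494), or 0.62 relative to all genes. Among 14 other settings the call held in 5, including quantile normalization (0.0122), and in 1 of the 6 fits with a library left out (0.0431 without GDH64 library 2, otherwise 0.0854 to 0.158). The leading gene of this group, Nitab4.5_0000168g0210, had 14.2, 14.2 and 12.32 FPKM in MuGDH64 and 12.8, 13.36 and 11 FPKM in GDH64, overlapping. Nitab4.5_0008919g0020, singled out after its values were seen, had 6.86, 0.64 and 0 FPKM in MuGDH64 and 5.81, 8.56 and 3.7 FPKM in GDH64. It did not pass (log2 change -1.52, interval -3.00 to -0.05; limma adjusted p = 0.149), and passed as lower without MuGDH64 library 1 (adjusted p 0.00762). The kinases that switch such complexes off had 2 expressed copies without a call, the leading one, Nitab4.5_0001334g0060, with 20.88, 19.89 and 20.62 FPKM in MuGDH64 against 22.02, 26.32 and 22.5 FPKM in GDH64, without overlap.

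Among the citric acid cycle enzymes found through shared domains, 1 aconitase fell. Nitab4.5_0011804g0010 had 15.28, 14.45 and 13.74 FPKM in MuGDH64 and 19.97, 23.13 and 18.45 FPKM in GDH64, without overlap (log2 change -0.47, interval -0.73 to -0.21; limma adjusted p = 0.031). Of 14 other settings 6 kept the call; it missed after quantile normalization (0.0555), and in fits without 1 library passed only without GDH64 library 3 (0.0338, otherwise 0.055 to 0.087). It held 16.6 ± 0.286% of the aconitase transcripts in MuGDH64 and 21.6 ± 1.03% in GDH64. The leading aconitase, Nitab4.5_0002137g0090, had 34.3, 33.41 and 30.09 FPKM in MuGDH64 and 33.13, 34.42 and 31.13 FPKM in GDH64, overlapping (interval -0.23 to 0.21).

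No isocitrate dehydrogenase passed on the deposited values or after quantile normalization. The most abundant member of all, the NADP form Nitab4.5_0000551g0080, had 136.56, 131.46 and 118.21 FPKM in MuGDH64 and 122.97, 129.47 and 113.95 FPKM in GDH64, overlapping (log2 change 0.07, interval -0.14 to 0.29), and passed as higher after median-centring (adjusted p 0.0284). It held 55.5 ± 0.697% of the NADP-form transcripts in MuGDH64 and 51.1 ± 0.780% in GDH64. The NAD form Nitab4.5_0010213g0010 had 26.25, 21.28 and 18.58 FPKM in MuGDH64 against 19.24, 19.94 and 21.25 FPKM in GDH64, also overlapping. Nitab4.5_0001700g0090, whose description fits either dehydrogenase, had 14.11, 14.75 and 14.03 FPKM in MuGDH64 and 14.14, 13.8 and 15.68 FPKM in GDH64.

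**Figure D5:**
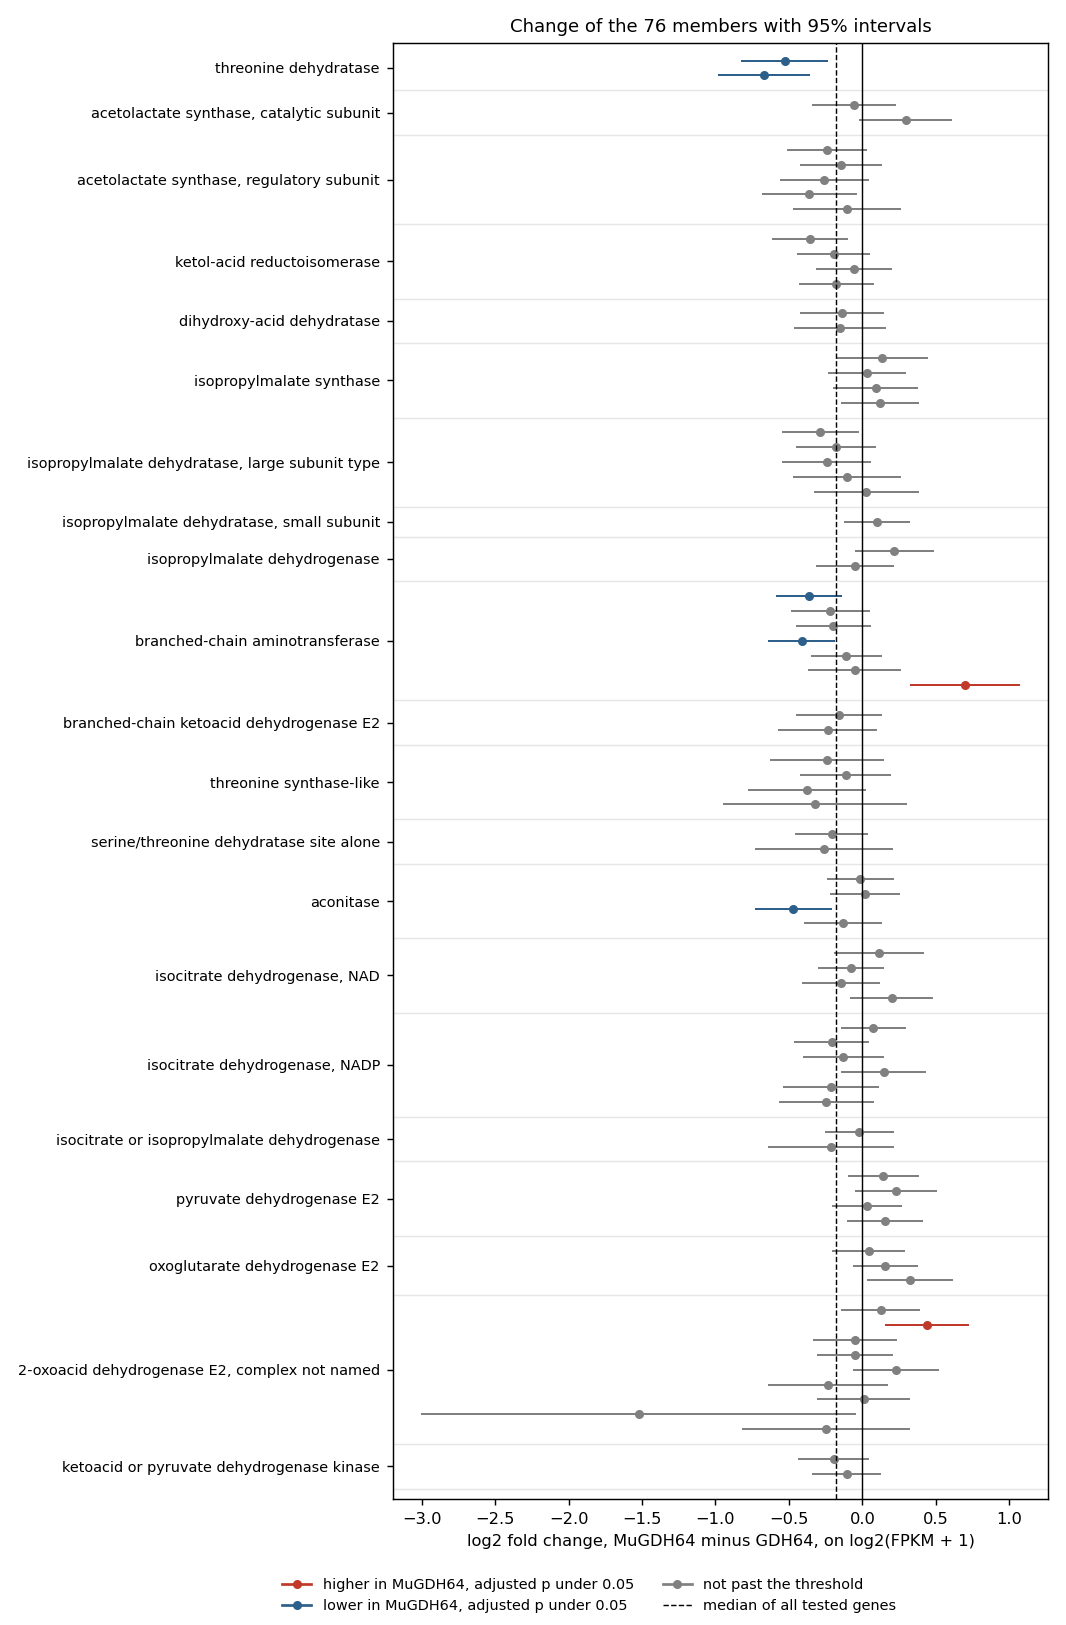
Log2 change on the log2(FPKM + 1) scale (MuGDH64 minus GDH64) of all 76 members with 95% intervals from limma, grouped by enzyme and ordered by mean level within each; the dashed line is the median of all tested genes at -0.18. Most intervals include both 0 and the dashed line. Both threonine dehydratases lie left of that line with their whole intervals. The points of the pyruvate and oxoglutarate E2 genes lie right of it, as do those of the isopropylmalate synthases. Of these E2 genes, Nitab4.5_0000244g0270 and Nitab4.5_0003450g0010 have intervals that cross the line.

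Over all members the median log2 change was -0.11, against -0.18 for all tested genes. It was -0.15 for the 36 genes of branched-chain steps, of which 1 rose and 4 fell, and -0.07 for the 40 found through shared domains, of which 1 rose and 1 fell, where 11.9% of all tested genes passed (2.2% higher and 9.74% lower). The splits turned with the scaling. Quantile normalization gave 2 higher and 1 lower among the branched-chain steps and 6 higher and 0 lower among the shared domains, and median-centring gave 4 and 1 for the first set and 8 and 0 for the second. The branched-chain steps summed to 661.78, 643.97 and 587.32 FPKM in MuGDH64 against 710.22, 802.49 and 660.34 FPKM in GDH64. These sums overlapped, and their ratio of means, 0.871 as deposited, was 1.01 after median-centring.

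Other genes of the surrounding pathways were counted from 9 lists of description patterns that leave the members out. Each count as deposited reads against the 11.9% of all tested genes that passed as deposited (2.2% higher and 9.74% lower). Counts after quantile normalization read against the 9.6% that passed then (4.43% higher and 5.17% lower). Several splits turned with the scaling. In the list for the pyruvate and branched-chain E1 subunits, whose pattern also takes transketolases, 1 of 37 genes fell, Nitab4.5_0003546g0010, a deoxyxylulose-phosphate synthase of plastid isoprenoid synthesis, and none rose. This gene had 5.4, 4.28 and 5.26 FPKM in MuGDH64 and 8.35, 8.5 and 7.84 FPKM in GDH64 (limma adjusted p = 0.0145, and 0.0569 after quantile normalization, when 1 other gene of the list passed as higher and none as lower). The pattern for branched-chain breakdown also takes acyl-CoA dehydrogenases of fatty acid oxidation, and 3-hydroxyacyl-CoA dehydrogenases, whose name holds the same words. In that list 1 of 58 rose and 3 fell. Nitab4.5_0001241g0110, a 3-hydroxyacyl-CoA dehydrogenase, was the gene that rose, with 3.68, 4.57 and 3.7 FPKM in MuGDH64 and 2.57, 2.34 and 1.99 FPKM in GDH64 (limma adjusted p = 0.0293). Nitab4.5_0000895g0010, which joins a crotonase fold to such a dehydrogenase, fell to 30.14, 30.5 and 25.85 FPKM, against 37.43, 43.82 and 38.51 FPKM in GDH64 (limma adjusted p = 0.0294). The descriptions of Nitab4.5_0001241g0110 and Nitab4.5_0000895g0010 name no branched-chain step. The aspartate family list, meant for the route to threonine, also takes other amino acid kinases and uridylate kinases. It had 1 of 42 higher and 3 lower. After quantile normalization the breakdown and aspartate family lists each had 2 higher and 1 lower. Nitab4.5_0001417g0050, an amino-acid N-acetyltransferase with such a kinase domain, fell to 12, 11.98 and 10.73 FPKM in MuGDH64, against 18.94, 22.52 and 16.99 FPKM in GDH64 (limma adjusted p = 0.011). Another that fell, Nitab4.5_0000680g0040, is by its description a uridylate kinase (limma adjusted p = 0.0238, and 0.0591 after quantile normalization). Neither is named for a step towards threonine beyond the shared kinase domain.

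The lipoyl cofactor list had 1 of 35 lower, Nitab4.5_0010336g0030 of the glycine cleavage T-protein type, and the citric acid cycle list had 2 of 70 higher and 4 lower, against 9 and 4 after quantile normalization. A succinyl-CoA ligase alpha subunit, Nitab4.5_0002150g0140, rose to 9.69, 9.54 and 9.42 FPKM in MuGDH64, against 4.81, 4.12 and 4.19 FPKM in GDH64 (limma adjusted p = 0.00168). The ACT domain list, named for a regulatory domain that binds amino acids, had 2 of 39 higher and 4 lower. One that rose, Nitab4.5_0000027g0210, had 16.82, 16.06 and 16.79 FPKM in MuGDH64 and 9.17, 8.2 and 11.11 FPKM in GDH64 (limma adjusted p = 0.00804), and one that fell, Nitab4.5_0005019g0060, had 5.8, 4.89 and 4.12 FPKM in MuGDH64 against 8.72, 9.55 and 11.78 FPKM in GDH64 (limma adjusted p = 0.0094). In the hydroxymethylglutaryl-CoA list 1 of 15 rose, the reductase Nitab4.5_0000235g0130. After quantile normalization the lipoyl list had 1 higher and 0 lower, the ACT list 2 higher and 3 lower, and the hydroxymethylglutaryl-CoA list 3 higher and 0 lower. One of the citric acid cycle list that fell, Nitab4.5_0012382g0010, is by its description a phenylalanine ammonia-lyase, taken in by the fumarase pattern.

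The last lists hold families that activate acyl groups and transfer them. Among 61 acyl-activating enzymes of the AMP-dependent synthetase family, which join acids to CoA, 7 fell and none rose as deposited, against 4 higher and 4 lower after quantile normalization. Nitab4.5_0007983g0020 fell to 8.19, 7.6 and 6.58 FPKM in MuGDH64, against 11.55, 13.27 and 11.79 FPKM in GDH64 (limma adjusted p = 0.0124, and 0.0152 after quantile normalization). Among 64 genes with the fold of BAHD acyltransferases, the family that esterifies sugars in trichomes, 7 rose and 16 fell as deposited. That is 35.9%, where 11.9% of all tested genes passed. Quantile normalization gave 12 higher and 10 lower, where 9.6% of all tested genes passed. The smallest adjusted p of the list belonged to Nitab4.5_0011112g0010, with 11.32, 11.18 and 9.39 FPKM in MuGDH64 and 0.3, 0.96 and 0.35 FPKM in GDH64, and Nitab4.5_0013262g0010, with 9.34, 8.1 and 8 FPKM in MuGDH64 against 0.39, 0.7 and 0.54 FPKM in GDH64. Both rose, and both met the level filter only through the 3 MuGDH64 libraries, so any such gene that was tested had to differ. The median log2 change was -0.18 in the acyl-activating list and -0.17 in the acyltransferase list, close to that of all tested genes. The lists together held 416 tested genes, 14 higher and 39 lower as deposited (12.7%). The split reversed to 36 higher and 23 lower after quantile normalization and to 43 higher and 19 lower after median-centring. The split of all tested genes also moved with the scaling, from 2.2% higher and 9.74% lower as deposited. It was 4.43% higher and 5.17% lower after quantile normalization, and 6% higher and 4.28% lower after median-centring.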

How the data were processed

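The authors deposited 1 table with a value per gene model for each of the 3 MuGDH64 and 3 GDH64 leaf libraries; its mean columns were not used. No unit stands in the header, so FPKM is an inference: the deposited numbers are not whole, and Cufflinks, which reports FPKM, is named with TopHat2 in the submitters' processing notes. Genome build, annotation and versions: not given in the sources used here. Read depth is unknown, so no counting error could be given. Columns were matched to samples by library name.

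The deposited FPKM were converted to log2(FPKM + 1). For the 32340 rows that reached 1 FPKM in 3 or more libraries, limma 3.58.1 (R 4.3.3) gave two-sided tests with a mean-variance trend, Benjamini-Hochberg adjusted over these rows at a threshold of 0.05; changes of low genes are understated on this scale. No label says that libraries come from separate plots, so p values measure the spread between these libraries, which may in part be technical. Enzyme steps were assigned from the descriptions. Named are all members past the threshold, the leading member of each step, members whose lines do not overlap with a relative change over 0.5, and up to 2 genes of smallest adjusted p per list; others were named for their step after their values were seen. The members and lists were chosen with earlier results of these data known. The alternatives were quantile normalization, median-centring, a sum of 1000000 per library, a pseudocount of 0.1, no filter, a filter of 5 FPKM, no trend, a block on the library number, and leaving out each library. NtCYC was not analysed here. Plots were made with matplotlib 3.10.9.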

Additional observations from a re-analysis of the deposited data

How the results depend on the processing

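No change of sign occurred for the 7 members past the threshold in any of the 14 other settings in which they were tested. Only quantile normalization, median-centring and a common sum could have changed a sign. The filters, the trend and the block leave these changes as they are. Since the lines did not overlap for the 7 members, a pseudocount of 0.1 or a library left out could not turn a sign either. Of these 7, 3 passed again after quantile normalization and after median-centring, 5 with libraries scaled to a common sum, 6 with a pseudocount of 0.1, 2 without the filter, 6 of 6 tested with a filter of 5 FPKM and 4 without the trend. The number of members past the threshold was 13 after median-centring, 2 without the filter, 4 without the trend and 0 to 3 with a library left out (0, with 9 at an unadjusted p under 0.05, in limma without MuGDH64 replicate 3). The number of all genes past it was 3863, 2280 without the filter and 1794 to 3141 with a library left out (1794 without GDH64 replicate 1, 1939 without GDH64 replicate 2, 2571, 2028 and 1854 without MuGDH64 replicate 1, 2 and 3); for the pathway lists it was 53, 34 without the filter and 29 to 42 with a library left out. The summed ratio of the branched-chain steps was 0.871, 1.01 after median-centring and 0.834 to 0.921 with a library left out. The cause was not tested. With the library number as a block (replicate block), 7 members and 3991 genes passed, and 6 of the 7 members passed again; Nitab4.5_0000145g0160 missed (adjusted p 0.0599) and the reductoisomerase Nitab4.5_0004426g0050 passed as lower (0.0463). Same-numbered libraries deviated together with correlations of only 0.0131 to 0.0511, against -0.0459 to 0.0281 for pairs of unlike number. No label ties a number to a plot, so whether same-numbered libraries share more than a number is unknown. The median standard error of a member was 0.12 on the log2 scale, which limits the changes detectable with these libraries; read depth is unknown.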
